A study of Mus musculus with 6 samples.

Results

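The genes described here are 32 targets of the transcription factor NRF2 and enzymes of antioxidant defence, taken by symbol from the 55416 genes of the deposited count table. The list was drawn up with earlier results of these data known. All 32 had a row and all 32 passed the filter on low counts that left 17659 genes for testing. They were measured by RNA sequencing in 6 libraries of primary mouse keratinocytes, the epithelial cells of the epidermis. The 3 Cebpb knockout libraries (numbered 4, 5 and 6) carry the genotype label CEBPB KO. The 3 wild type libraries (1, 2 and 3) carry the label wt. Both groups came from skin of C57BL/6J:129 hybrid pups aged 1 to 2 days, were cultured in 0.05 mM calcium, were irradiated on day 5 after plating with UVB (312 nm, 10 mJ/cm2) and were collected 8 h later. No library without UVB was analysed here, so the comparison is one of genotypes after irradiation and says nothing of induction by UVB. How the knockout allele was made, and whether the libraries of a genotype were separate animals or cultures, is not given in the sources used here.

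NRF2, the product of Nfe2l2, is a leucine zipper transcription factor that the adaptor KEAP1 normally marks for destruction. Oxidants and electrophiles modify cysteines of KEAP1, NRF2 then accumulates, pairs with small MAF proteins and binds antioxidant response elements near genes for glutathione and thioredoxin metabolism, NADPH supply, iron storage and quinone reduction. UVB generates reactive oxygen species in skin, and the pathway is known as a shield of keratinocytes against it. C/EBPβ, which Cebpb encodes, is a leucine zipper factor of a different family.

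The deleted gene checked the labels. Cebpb stood at 0.942 ± 0.143 CPM in knockout and 145 ± 21.9 CPM in wild type cells (SD, n = 3 each). CPM are counts scaled to the size of the library, with library sizes adjusted by edgeR's TMM factors. Total counts were 81256192 to 92987497 in knockout and 107757415 to 122797031 in wild type libraries, so that 3 counts equal at most 0.0349 CPM, and the scarcest of the 32 genes still had 145 counts in its lowest library. Transcripts of 4 genes of the Y chromosome together made up 0.101 to 0.158 CPM in knockout and 60.7 to 68.1 CPM in wild type libraries. Xist, the RNA that silences an X chromosome in female cells, had 567, 589.9 and 604 CPM in knockout and 415, 403 and 387 CPM in wild type libraries and rose by 0.55 log2 units. The wild type libraries thus held Y-linked and Xist transcripts together, the knockout libraries Xist with next to no Y-linked transcripts, and sex and genotype cannot be told apart here. Mitochondrial transcripts took 1.79% to 2.17% of counts in knockout and 1.47% to 1.64% in wild type libraries, and ribosomal protein genes 6.45% to 6.96% in knockout and 7.35% to 7.81% in wild type libraries. Over all genes tested, 24.8% were called higher and 23.7% lower. Of 10 keratinocyte markers 8 fell and 1 rose, with sums of 24760 to 25780 CPM in knockout and 41620 to 46680 CPM in wild type libraries. These sums were mostly Krt5 (mean 11537 CPM in knockout, 19824 in wild type) and Krt14 (7872 and 14956). All 12 markers of differentiated keratinocytes fell, with sums of 687 to 974 CPM in knockout and 3641 to 4599 CPM in wild type libraries (10 fell when totals replaced TMM). Melanocyte markers were plentiful and 5 of 7 fell (2 of 7 when totals replaced TMM), with sums of 607 to 688 CPM in knockout and 695 to 783 CPM in wild type libraries. The 7 leukocyte and Langerhans markers summed to 28.1 to 31.4 CPM in knockout and 48.4 to 58.1 CPM in wild type libraries, nearly all of it Cd68, while Ptprc, Cd207 and Cd3e had fewer than 10 counts in every library. Fibroblast markers (4.05 to 4.44 CPM in knockout, 4.94 to 6.40 CPM in wild type libraries, Lum at 0) and endothelial markers (4.46 to 5.32 CPM in knockout, 6.43 to 6.92 CPM in wild type libraries, Cdh5 and Emcn at 0) were scarce. All of these values move together with genotype, and their part in the results was not tested. In bulk RNA, fewer cells of a type and less RNA per cell cannot be told apart.

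Antioxidant genes moved in both directions, by sizes near those of other genes. In knockout cells 12 of the 32 rose, 12 fell and 8 were left uncalled at an adjusted p under 0.05 (edgeR, quasi-likelihood). Of all genes tested, 48.6% were called (24.8% higher, 23.7% lower), and of the 12519 genes averaging 1 CPM or more, 59.4%. The same 24 genes, 12 in each direction, were those without overlap between the genotypes, against 56.4% of all genes (28.7% higher, 27.6% lower). Only 3 of the 32, Hmox1, Gsr and Osgin1, were called with a change of at least 1 log2 unit. Of all genes 14.5% were (8.56% higher, 5.94% lower), and the share among genes of similar level was not taken. The median log2 fold change was -0.03, beside 0.01 for all genes, and the median size of change was 0.34, beside 0.38 for all genes and 0.33 for those of at least 1 CPM. Scaling by library totals lifts the median of all genes by 0.20, and the 32 genes then had 15 higher, 6 lower and 11 not called, and all genes 36.7% higher and 13.9% lower. Every fold change below is therefore to be read against that shift, and no called gene of the 32 changed sign with it. As shares of all counts, the 32 genes together took 0.844% to 0.855% in knockout and 0.789% to 0.840% in wild type libraries.

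**Figure D1:**
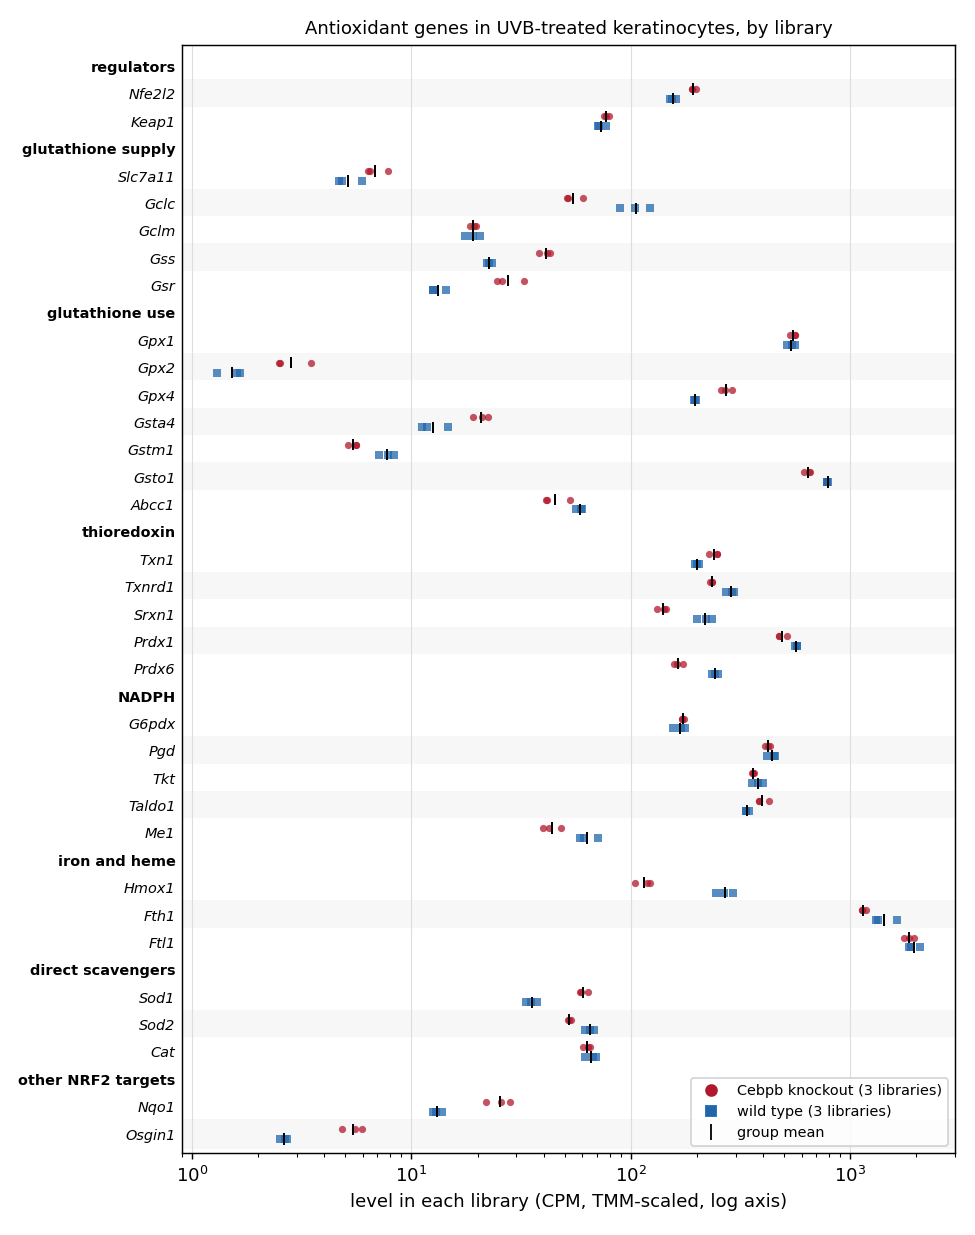
Level of each of the 32 genes in each library, in TMM-scaled CPM on a log axis, grouped by role. Circles are the 3 Cebpb knockout libraries, squares the 3 wild type libraries and vertical strokes the group means. The circles stand left of the squares for Gclc and Hmox1 and right of them for Gsr, Sod1, Nqo1 and Osgin1.

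Of the 2 regulators 1 rose and 1 was not called (median 0.19), and with library totals 2 rose. Nfe2l2 (ENSMUSG00000015839) had 189, 189 and 198 CPM in the knockout libraries and 151, 160 and 154 CPM in the wild type libraries. Every knockout library was above every wild type library, and the gene rose by 0.31 ± 0.05 log2 units (SE, adjusted p = 1.99e-04). Keap1, whose product holds NRF2 in check, averaged 77.3 ± 2.30 CPM in knockout and 73.2 ± 3.39 CPM in wild type cells, with overlap, and was not called (0.08 ± 0.06, adjusted p = 0.321). It was called higher with library totals (0.28, adjusted p = 0.00277). The count ratio of Nfe2l2 to Keap1, which no scaling of libraries can change, was 2.37, 2.46 and 2.63 in knockout and 2.13, 2.08 and 2.16 in wild type libraries. This pair and those of the other count ratios below were chosen after the values were seen.

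Promoter sequences were at hand for 26 of the 32 genes, as RefSeq windows of GRCm38.p6 (mouse), an older build than the one the counts were made on. No window was at hand for Gclc, Gsr, Gsta4, Abcc1, Prdx6 and Hmox1. The windows run from 250 bases before to 50 after a start and were searched on both strands. The core of the antioxidant response element, TGACNNNGC, occurred in 9 of the 26 genes. Over all 27025 genes with a window the share was 14%. Among the 9 genes, 2 rose (Nfe2l2 and Sod1), 4 fell (Txnrd1, Srxn1, Prdx1 and Me1) and 3 were not called (Gclm, G6pdx and Pgd). With library totals Txnrd1 and Prdx1 were not called and G6pdx was called higher. The longer form TGACTCAGC, which includes that core, was found in Prdx1 and Me1 alone among the 26 and in 0.503% of all genes. A C/EBP-like form, TTGCNNAA, occurred in 2 of the 26 genes, Slc7a11 and Fth1, and in 12.2% of all genes. A match describes letters and not a bound site. A gene without a match may still have the letters outside its window, where no search was made. The stretches below run from 170 bases before to 20 after the start on the gene's own strand. By the calls with TMM, they show the element in 2 genes that fell and in 1 that was not called. They show the C/EBP-like letters in 1 gene that rose. The calls of Prdx1, G6pdx and Slc7a11 depend on the scaling or on single libraries, as given with each gene. Capitals mark the matches, which read as the reverse complement in Prdx1, G6pdx and the first of Slc7a11.
Prdx1, chr4:116685429-116685618, plus strand: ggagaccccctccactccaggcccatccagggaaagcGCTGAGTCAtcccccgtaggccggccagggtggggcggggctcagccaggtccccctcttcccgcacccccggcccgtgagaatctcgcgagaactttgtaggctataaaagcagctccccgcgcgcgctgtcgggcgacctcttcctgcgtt
Me1, chr9:86695895-86696084, minus strand: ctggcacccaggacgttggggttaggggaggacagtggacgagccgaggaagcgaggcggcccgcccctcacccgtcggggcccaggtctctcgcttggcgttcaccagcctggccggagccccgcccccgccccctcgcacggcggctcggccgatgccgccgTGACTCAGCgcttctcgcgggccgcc
G6pdx, chrX:74428861-74429050, minus strand: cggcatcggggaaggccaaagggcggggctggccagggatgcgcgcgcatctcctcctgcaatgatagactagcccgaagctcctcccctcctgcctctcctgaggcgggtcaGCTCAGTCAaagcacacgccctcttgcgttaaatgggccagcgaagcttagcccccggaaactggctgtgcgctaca
Slc7a11, chr3:50443594-50443783, minus strand: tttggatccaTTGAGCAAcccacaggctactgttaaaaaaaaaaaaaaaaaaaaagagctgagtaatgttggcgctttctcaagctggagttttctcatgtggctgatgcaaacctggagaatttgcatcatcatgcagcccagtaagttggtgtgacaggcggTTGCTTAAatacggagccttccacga

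Glutathione supply moved apart within the route. Of its 5 genes 3 rose, 1 fell and 1 stayed uncalled, and their median log2 fold change was 0.41. Library totals gave the same counts of calls and a median of 0.61. Gclc (ENSMUSG00000032350) encodes the catalytic subunit of glutamate-cysteine ligase, which makes the first and limiting bond of glutathione. It had 60.2, 51.9 and 51.2 CPM in the knockout libraries, against 89.4, 121.6 and 104.1 CPM in the wild type libraries. The highest knockout library lay well below the lowest wild type one, and the gene fell by 0.95 ± 0.10 log2 units (SE, adjusted p = 1.51e-06). Gclm, the modifier subunit of the same enzyme, stood at 19.1 ± 0.632 CPM in knockout and 19.1 ± 1.51 CPM in wild type cells (SD, n = 3 each) and was not called (0.01 ± 0.09, adjusted p = 0.970). The ratio of Gclc to Gclm counts was accordingly 3.07, 2.81 and 2.65 in knockout and 5.11, 5.92 and 5.44 in wild type libraries. That is a ratio of counts and not of subunits, since it carries the lengths of the transcripts.

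The later steps of glutathione supply were higher. Gss (ENSMUSG00000027610), glutathione synthetase, adds the last amino acid and had 41.4, 43.0 and 38.3 CPM in the knockout libraries, against 22.0, 23.2 and 22.6 CPM in the wild type libraries (0.86 ± 0.08 log2 units, adjusted p = 1.30e-07). Gsr (ENSMUSG00000031584), the reductase that returns oxidised glutathione to its reduced form with NADPH, had 32.5, 24.4 and 25.9 CPM in knockout libraries, against 12.6, 14.4 and 12.6 CPM in wild type libraries. Knockout library 4 was the highest in Gsr, yet all 3 knockout libraries exceeded the wild type ones, and Gsr rose by 1.07 ± 0.11 log2 units (adjusted p = 7.09e-07). Slc7a11, the cystine carrier that feeds the route, was scarce at 6.35, 6.45 and 7.78 CPM in knockout and 5.98, 4.69 and 4.81 CPM in wild type libraries. It rose by 0.41 ± 0.14 (adjusted p = 0.0228), a call lost without knockout library 6 (0.31, adjusted p = 0.115) and without wild type library 2 (0.34, adjusted p = 0.0858) or 3 (0.35, adjusted p = 0.102). Exons of Gss overlap those of Acss2 on the opposite strand in GENCODE M21, and the strand setting of the counting is not given in the sources used here. Gss, like Nfe2l2, Srxn1 and Cat, is annotated on chromosome 2, which also carries Cebpb.

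Genes that spend glutathione went both ways: 3 of the 7 rose, 3 fell and Gpx1 was not called (median 0.03). With library totals 4 rose, 1 fell and 2 were not called (median 0.23). Among the glutathione peroxidases, Gpx4, which reduces lipid hydroperoxides in membranes, had 258, 267 and 289 CPM in the knockout libraries and 199, 195 and 197 CPM in the wild type libraries. The wild type values lay close together and below all knockout values, and Gpx4 rose by 0.46 ± 0.06 log2 units (adjusted p = 5.36e-06). Gpx1, the abundant cytosolic enzyme, averaged 550 ± 17.4 CPM in knockout and 538 ± 22.5 CPM in wild type cells and was not called (0.03 ± 0.06, adjusted p = 0.681), but was called with library totals (0.23, adjusted p = 0.00129). Gpx2, best known from the gut, was rare at 2.83 ± 0.568 CPM in knockout and 1.52 ± 0.191 CPM in wild type cells and rose by 0.90 ± 0.19 (adjusted p = 0.00105). Per kilobase of annotated exon, mean levels in knockout cells were 381 CPM for Gpx1, 158 for Gpx4 and 0.880 for Gpx2, and in wild type cells 373, 114 and 0.471, so the order of the 3 genes was the same in both genotypes.

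Among the transferases, Gsta4, whose enzyme conjugates the lipid aldehyde 4-hydroxynonenal, had 20.9, 19.1 and 22.3 CPM in knockout libraries, against 11.2, 11.7 and 14.7 CPM in wild type libraries (0.73 ± 0.11 log2 units, adjusted p = 4.53e-05). Gstm1 went the other way, at 5.43 ± 0.262 CPM in knockout and 7.75 ± 0.634 CPM in wild type cells (fell by 0.51 ± 0.12, adjusted p = 0.00223). Gstm1 has close relatives in its cluster, so shared reads make its value uncertain. Gsto1, the omega class enzyme and the most abundant per kilobase of the 3 transferases among the 32 genes, fell by 0.30 ± 0.05 (639 ± 23.3 CPM in knockout and 788 ± 6.27 CPM in wild type cells, adjusted p = 1.72e-04). Abcc1, a pump that exports glutathione conjugates, fell by 0.37 ± 0.09 (adjusted p = 0.00221). Neither fall was called with library totals (-0.10, adjusted p = 0.101 for Gsto1 and -0.18, adjusted p = 0.107 for Abcc1).

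**Figure D2:**
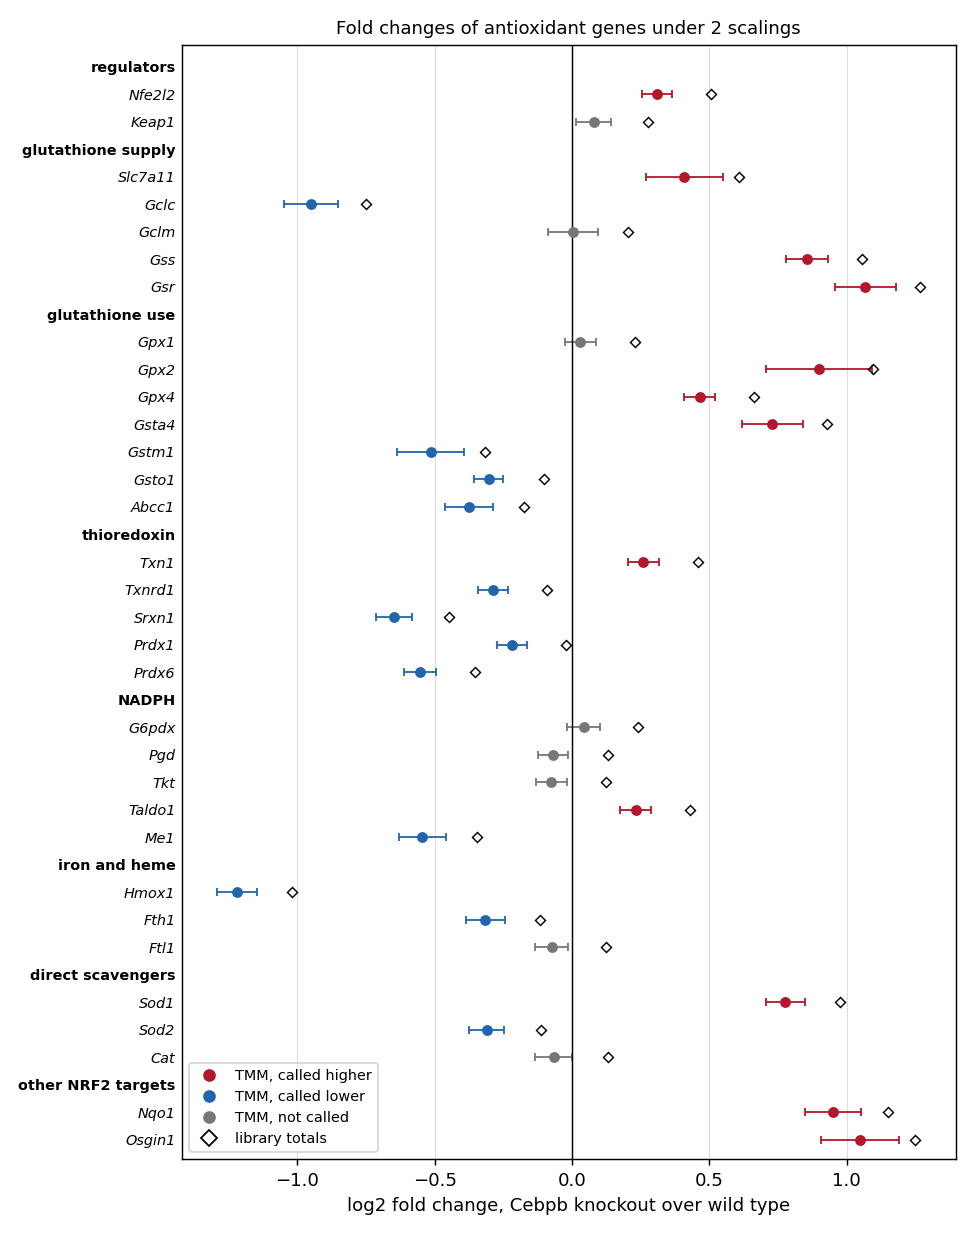
Log2 fold change of each gene, Cebpb knockout over wild type, grouped by role. Circles with bars are TMM-scaled estimates with their SE, coloured by call (12 higher, 12 lower, 8 not called), and open diamonds are the same fit with library totals. The diamonds stand about 0.20 to the right of the circles, which takes 6 lower genes out of the call (Gsto1, Abcc1, Txnrd1, Prdx1, Fth1 and Sod2).

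The thioredoxin arm was taken to include the peroxiredoxins Prdx1 and Prdx6, whatever reduces them. As grouped, it was mostly lower, with 4 of 5 genes down and 1 up (median -0.29). With library totals 2 fell (Srxn1 by 0.45 and Prdx6 by 0.35), 1 rose and 2 were not called (median -0.09). Srxn1 (ENSMUSG00000032802) encodes sulfiredoxin, which repairs peroxiredoxins that hydrogen peroxide has overoxidised. It had 132, 144 and 142 CPM in the knockout libraries, against 234, 199.8 and 221 CPM in the wild type libraries, and fell by 0.65 ± 0.07 log2 units (SE, adjusted p = 5.82e-07). Prdx6, a peroxiredoxin that also acts on phospholipid peroxides, had 158, 163 and 173 CPM in knockout libraries, against 250 (library 1), 241 (library 2) and 234 CPM (library 3) in wild type. The groups were far apart relative to their own spread, and Prdx6 fell by 0.55 ± 0.06 (adjusted p = 7.80e-07). Prdx1, the abundant cytosolic peroxiredoxin, stood at 487 ± 22.6 CPM in knockout and 567 ± 6.34 CPM in wild type cells and fell by 0.22 ± 0.05 (adjusted p = 0.00319). Txnrd1, the selenium-dependent reductase that recharges thioredoxin with NADPH, stood at 233 ± 2.39 CPM in knockout and 285 ± 12.2 CPM in wild type cells and fell by 0.29 ± 0.05 (adjusted p = 3.68e-04). With library totals neither Prdx1 (-0.02, adjusted p = 0.754) nor Txnrd1 (-0.09, adjusted p = 0.165) was called.

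Thioredoxin itself was the exception in that arm. Txn1 had 227, 246 and 246 CPM in the knockout libraries, against 205, 196 and 200.2 CPM in the wild type libraries, and rose by 0.26 ± 0.06 log2 units (adjusted p = 0.00111). Txnrd1, which reduces it, and Srxn1, which draws on it for electrons, both shifted against it. The count ratio of Txnrd1 to Txn1 was 1.01, 0.954 and 0.952 in knockout and 1.44, 1.39 and 1.44 in wild type libraries, and that of Srxn1 to Txn1 was 0.581 ± 0.00593 in knockout and 1.09 ± 0.0608 in wild type libraries (SD, n = 3 each).

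NADPH, which both the glutathione and the thioredoxin reductase consume, is supplied by the pentose phosphate pathway and by malic enzyme. In this arm Taldo1 rose, Me1 fell and the other 3 of its 5 genes were not called (median -0.07). With library totals 2 rose, 1 fell and 2 were not called (median 0.13). G6pdx, the entry enzyme of the pathway, had 175, 171 and 171 CPM in the knockout libraries and 156, 176 and 169.6 CPM in the wild type libraries. The groups overlapped and the gene was not called (0.04 ± 0.06, adjusted p = 0.587), though it was with library totals (0.24, adjusted p = 0.00378). G6pdx is X-linked and overlaps Ikbkg on the opposite strand. Pgd, the second NADPH-producing step, and Tkt, a transketolase of the non-oxidative branch, lay at -0.07 ± 0.06 and -0.07 ± 0.06 and were not called (adjusted p = 0.337 and 0.298). Taldo1, the transaldolase of that branch, had 383, 385 and 425 CPM in knockout libraries, against 346, 334 and 335 CPM in wild type libraries, and rose by 0.23 ± 0.06 (adjusted p = 0.00304). Me1, the cytosolic malic enzyme, had 39.9, 42.4 and 48.1 CPM in knockout libraries, against 70.6, 61.2 and 58.5 CPM in wild type libraries, and fell by 0.54 ± 0.09 (adjusted p = 6.05e-05). The ratio of Me1 to G6pdx counts was 0.253 ± 0.0275 in knockout and 0.382 ± 0.0613 in wild type libraries, without overlap.

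In the iron and heme arm 2 of 3 genes fell and 1 was not called (median -0.31, or -0.12 with library totals, where 1 fell). Hmox1 (ENSMUSG00000005413), the inducible heme oxygenase that breaks heme down to biliverdin, carbon monoxide and iron, had the deepest fall of the 32 genes. It stood at 104, 122 and 118 CPM in the knockout libraries, against 291, 266 and 245 CPM in the wild type libraries. The lowest wild type library held more than any knockout library by a wide margin, and Hmox1 fell by 1.22 ± 0.07 log2 units (adjusted p = 1.25e-09), to a level of 115 ± 9.39 CPM in knockout cells against 267 ± 23.0 CPM in wild type cells. Its constitutive relative Hmox2, from the wider list of iron genes, was not called (0.15 ± 0.09, adjusted p = 0.171), though it was called higher with library totals (0.35), and the ratio of Hmox1 to Hmox2 counts was 3.32, 3.96 and 4.26 in knockout and 11.7, 9.48 and 8.57 in wild type libraries. Of the ferritin subunits, Fth1, the heavy chain that oxidises iron for storage, had 1134, 1179 and 1131 CPM in knockout and 1631, 1314 and 1337 CPM in wild type libraries. Wild type library 1 was the high one, and Fth1 fell by 0.31 ± 0.07 (adjusted p = 0.00184), which was not called with library totals (-0.12, adjusted p = 0.167). Ftl1, the light chain, averaged 1849 ± 90.8 CPM in knockout and 1946 ± 121 CPM in wild type cells and was not called (-0.07 ± 0.06, adjusted p = 0.338). Ferritin genes have processed copies in the genome that can share reads, so both levels are uncertain.

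Of the 3 direct scavengers 1 rose, 1 fell and 1 was not called (median -0.07). With library totals 1 rose and 2 were not called (median 0.13). Sod1 (ENSMUSG00000022982), the copper and zinc superoxide dismutase of the cytosol, had 59.2, 58.5 and 63.7 CPM in the knockout libraries, against 35.2, 33.4 and 37.2 CPM in the wild type libraries, and rose by 0.78 ± 0.07 log2 units (adjusted p = 1.68e-07). Sod2, the manganese enzyme of mitochondria, had 53.5, 52.0 and 51.6 CPM in knockout and 61.8, 68.0 and 65.1 CPM in wild type libraries and fell by 0.31 ± 0.06 (adjusted p = 8.32e-04), a call lost with library totals (-0.11, adjusted p = 0.204). The count ratio of Sod1 to Sod2 was 1.11, 1.12 and 1.23 in knockout and 0.569, 0.491 and 0.573 in wild type libraries. Cat, the catalase of peroxisomes, averaged 63.0 ± 2.54 CPM in knockout and 65.9 ± 3.85 CPM in wild type cells and was not called (-0.07 ± 0.07, adjusted p = 0.448).

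The remaining targets of NRF2 rose. Nqo1 (ENSMUSG00000003849), a quinone reductase commonly read as a sign of NRF2 activity, had 25.7, 21.9 and 28.1 CPM in the knockout libraries, against 12.9, 12.5 and 13.7 CPM in the wild type libraries, and rose by 0.95 ± 0.10 log2 units (adjusted p = 1.01e-06). Osgin1, a growth inhibitor induced by oxidised lipids, had 4.82, 5.51 and 5.98 CPM in knockout and 2.66, 2.52 and 2.70 CPM in wild type libraries and rose by 1.05 ± 0.14 (adjusted p = 1.41e-05). Nqo1 and Hmox1, both standard reporters of the pathway, thus stood on opposite sides. Their count ratio, Nqo1 to Hmox1, was 0.246, 0.179 and 0.238 in knockout and 0.0443, 0.0471 and 0.0562 in wild type libraries, a mean difference of 2.16 log2 units.

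**Figure D3:**
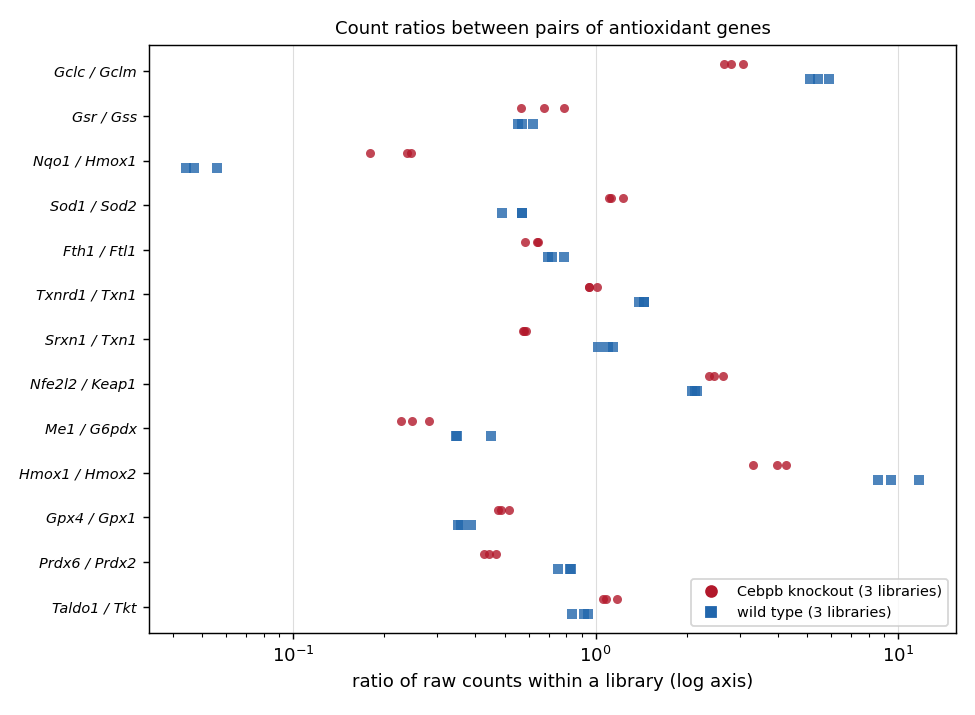
Ratio of raw counts of pairs of genes within each library, on a log axis. Circles are the 3 Cebpb knockout and squares the 3 wild type libraries. Of the 13 pairs, which were chosen after the values were seen, the groups overlap only for Gsr to Gss, at 0.568 to 0.784 in knockout and 0.554 to 0.620 in wild type libraries. That choice makes the separation of the other pairs no test, and the share among unselected pairs was not taken.

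Other genes of the same pathways, 149 in 8 lists, were read in the same fit. The fit called 45 of the 134 tested higher and 38 lower and left 51 uncalled. The share called was 61.9%, against 48.6% of all genes and 59.4% of genes averaging 1 CPM or more. The median of the 134 genes was 0.05, and with library totals 65 were higher and 26 lower. Every list held genes that rose and genes that fell. Some of the genes named from these lists share exon sequence with a gene on the opposite strand. They are Syvn1, Aifm2, Prdx2, Prdx5, Aldh1l1, Hmox2, Slc11a2, Nqo2, Pon2, Selenop, Ucp2, Noxo1, Nox1 and Duoxa1. Aldh1l1, Ephx1, Prnp and Nnt share exon sequence with a gene on their own strand. Among the 32 genes, 7 overlap another annotated gene (Keap1, Gclm, Gss, G6pdx, Tkt, Me1 and Ftl1). Without a stated strand setting the values of genes with overlaps on the opposite strand are uncertain. Overlaps on the same strand leave values uncertain whatever the setting, though that of Tkt is only 1 base.

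Among 16 partners of NRF2 and genes of its turnover, 3 rose, 4 fell and 9 were not called (median 0.06), with 8 higher and 2 lower with library totals. Trim21, a ubiquitin ligase that acts on the KEAP1-binding protein SQSTM1, had the widest change, at 49.5 ± 2.33 CPM in knockout and 13.8 ± 2.50 CPM in wild type cells (1.85 ± 0.11 log2 units, adjusted p = 9.28e-10). Dpp3, which binds KEAP1, rose by 0.17, a call that was lost without knockout library 4 or 5 or wild type library 1 or 3. Cul3, the cullin scaffold that works with KEAP1, fell by 0.41 and Maff, a small MAF partner, by 0.50. Syvn1, a ubiquitin ligase of the endoplasmic reticulum, fell by 0.19, but its call was lost in 8 of the 12 alternative settings and its sign turned with library totals (0.01).

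Of 30 other glutathione genes, 9 rose, 9 fell and 12 were not called (median -0.04, or 0.16 with library totals). Glrx, the glutaredoxin that removes glutathione from protein thiols, changed most among them by size. It had 18.7, 27.7 and 21.9 CPM in the knockout libraries, against 217, 182 and 197 CPM in the wild type libraries, and fell by 3.12 ± 0.13 log2 units (adjusted p = 1.41e-08). The microsomal transferases parted, with Mgst1 down by 1.36, Mgst2 down by 1.07 and Mgst3 up by 1.56. Chac1, which degrades glutathione, stood at 2.93 ± 0.0853 CPM in knockout and 6.26 ± 0.697 CPM in wild type cells, a fall. Aifm2, which encodes the ferroptosis suppressor FSP1, rose by 1.22 ± 0.11 (15.6 ± 1.37 CPM in knockout and 6.70 ± 0.393 CPM in wild type cells), and Gstm2 by 1.01, a value as uncertain as that of Gstm1 for its near copies.

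Of 15 other thioredoxin and peroxiredoxin genes, 8 rose, 4 fell and 3 were not called (median 0.29, or 0.49 with library totals). Sesn3, a sestrin, rose by 1.05, Prdx4, the peroxiredoxin of the secretory pathway, by 0.62 and Msrb2, a methionine sulfoxide reductase, by 0.57. Txnrd3, a reductase of the thioredoxin family, fell by 1.19, Prdx5 by 0.45 and the mitochondrial thioredoxin Txn2 by 0.44. Prdx2 was higher while Prdx6 was lower, so that the ratio of Prdx6 to Prdx2 counts was 0.446 ± 0.0204 in knockout and 0.801 ± 0.0438 in wild type libraries.

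Of 13 other NADPH genes tested, 7 rose, 2 fell and 4 were not called (median 0.18, or 0.38 with library totals). Idh1, the cytosolic isocitrate dehydrogenase, rose by 0.77 ± 0.07 (91.8 ± 7.19 CPM in knockout and 53.8 ± 3.90 CPM in wild type cells), whereas its mitochondrial counterpart Idh2 fell by 0.53 ± 0.07. Aldh1l1, a folate enzyme that yields NADPH, rose by 0.93 and the mitochondrial NAD kinase Nadk2 by 0.84. Me2, the mitochondrial malic enzyme, fell by 0.36, which was lost with library totals.

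Of 13 other iron and heme genes tested, 2 rose, 4 fell and 7 were not called (median -0.10, or 0.09 with library totals). Genes of iron handling divided. Slc11a2, the iron transporter DMT1, stood at 51.4 ± 4.38 CPM in knockout and 25.3 ± 0.947 CPM in wild type cells (1.02 ± 0.08 log2 units, adjusted p = 2.25e-08), and Ireb2, the iron sensor IRP2, rose by 0.38. Tfrc, the transferrin receptor, had 58.5 ± 3.79 CPM in knockout and 91.5 ± 2.35 CPM in wild type cells and fell by 0.64. Ncoa4, which delivers ferritin for degradation, fell by 0.51 and Steap3, a ferrireductase, by 0.41. The call of Steap3 was lost with library totals.

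Of 20 genes of quinone, aldehyde and drug detoxification tested, 8 rose, 5 fell and 7 were not called (median 0.17, or 0.37 with library totals). Abcc3, an export pump, rose by 1.65, Nqo2, a relative of Nqo1, by 1.41 ± 0.13 (10.3 ± 1.25 CPM in knockout and 3.88 ± 0.306 CPM in wild type cells) and the aldo-keto reductase Akr1b10 by 0.85. Akr1b10 has a near copy in Akr1b8, so its value is uncertain. Abcc4, another pump, fell by 1.46, Ptgr1, which inactivates leukotrienes and reactive aldehydes, by 1.04 and the epoxide hydrolase Ephx1 by 0.50. Among 11 other scavengers and metallothioneins, 2 rose (Pon2 by 0.53 and Mt1 by 0.44), 5 fell and 4 were not called (median -0.09, or 0.11 with library totals). Prnp, the copper-binding prion protein gene, fell by 1.20 ± 0.06, Selenop, a selenium carrier, by 0.77 and Ucp2 by 0.35, the last lost with library totals.

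**Figure D4:**
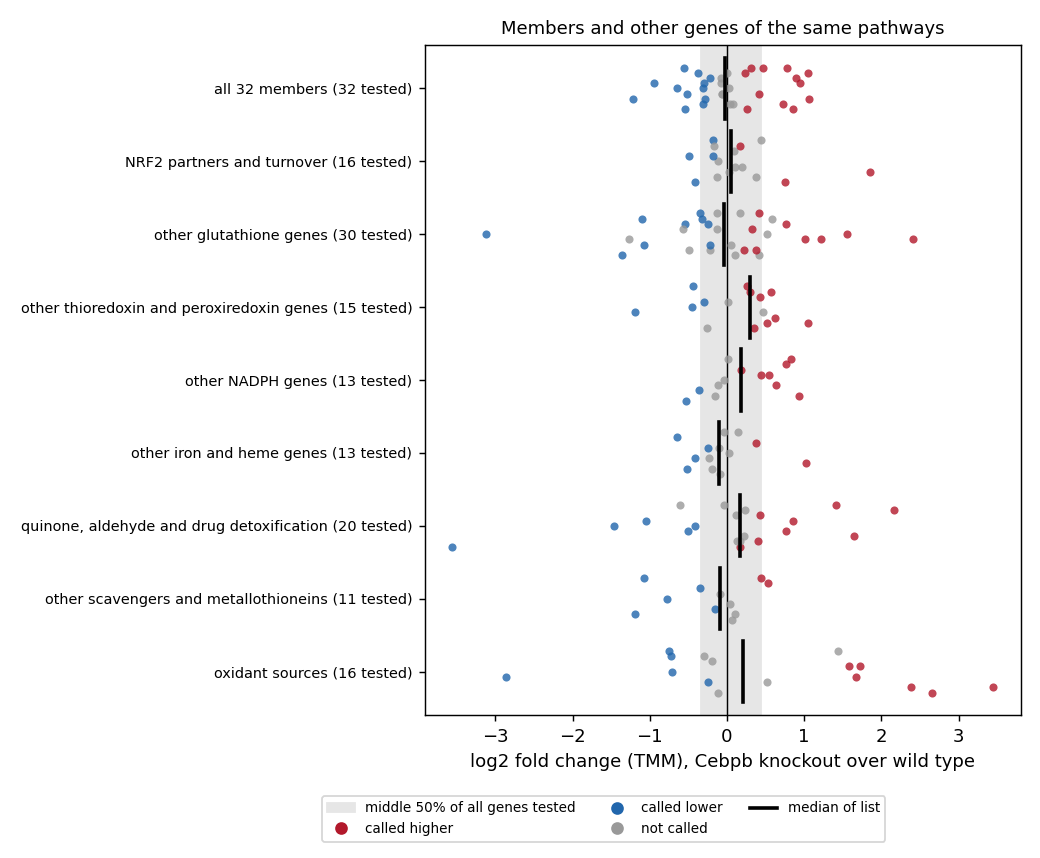
Log2 fold change of each tested gene, Cebpb knockout over wild type with TMM, for the 32 genes and the 8 wider lists. Each point is a gene coloured by call, black strokes are list medians (from -0.10 to 0.29 in the wider lists), and the grey band spans the quartiles of all 17659 genes (-0.33 to 0.44).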

How the data were processed

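The authors deposited unnormalised read counts for every Ensembl gene and all 6 libraries. The tools STAR, FastQC, DESeq2 and HTSeq and the builds GRCm39 and mm39 are named per the submitters' processing notes. No version, annotation release or strand setting is stated there, so reads of overlapping antisense genes cannot be told apart.

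Symbols were matched by identifier (52083 of 55416). Counts were tested with edgeR 4.0.16 (R 4.3.3): quasi-likelihood fit with robust dispersion, genotype as the only factor, filterByExpr at its minimum of 10 counts, TMM scaling and Benjamini-Hochberg adjustment over all 17659 genes. The SE of a log2 fold change was derived from its quasi-likelihood F. Errors beside CPM are SDs over 3 libraries. The labels do not say that libraries were separate animals, so p-values reflect only how far these samples vary, perhaps technically. Exon lengths, chromosomes and overlaps came from GENCODE M21, an older build, used for no positions. The fit was also run on simulated counts in which few genes changed. That run cannot test the TMM assumption that most genes do not change. The 32 genes, their arms and the wider lists were chosen with earlier results of these data known. From each wider list the text names up to 3 of the largest rises and falls among called genes averaging 2 CPM or more with no overlap between groups. Alternatives were DESeq2 size factors, library totals, no filter, a minimum mean of 1 CPM, DESeq2 1.42.0, limma voom (limma 3.58.1) and leaving out each library. Hmox2, Prdx2, Mgst2, Nnt and Nox1 stand outside that rule and were chosen after their values were seen.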

Additional observations from a re-analysis of the deposited data

How the results depend on the processing

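Of the 24 called genes, 17 kept direction and call in all 12 alternatives, 11 of them higher and 6 lower (Gclc, Gstm1, Srxn1, Prdx6, Me1 and Hmox1). Of the 8 uncalled genes, 5 stayed uncalled throughout, and each of these changed sign in at least 1 alternative. DESeq2 size factors, the DESeq2 test, limma voom and both filters changed no call among the 32. Library totals moved the lower calls to 6 among the 32 genes and to 2452 among all genes, and the median of the 32 to 0.17. Leaving out each library in turn gave 11 to 12 higher and 12 lower genes and a median of -0.0284 to -0.00110, and touched the call of Slc7a11 alone among the 32. Of the 43 genes named by the rule from the wider lists, 38 kept direction and call throughout. Syvn1 turned to 0.013 with library totals. The cause of these shifts was not tested beyond the scaling itself, and TMM assumes that most genes do not change. No paired analysis was run because the labels used here do not say whether libraries were matched between the genotypes.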

Other observations

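Genes that make oxidants were also listed. Of 16 tested among 23, 6 rose, 5 fell and 5 were not called in knockout cells, with a median log2 fold change of 0.20, or 0.40 with library totals. Noxo1, the organiser subunit of the NADPH oxidase NOX1, had 14.7, 13.5 and 10.9 CPM in the knockout libraries, against 2.13, 2.00 and 2.05 CPM in the wild type libraries (2.66 ± 0.14 log2 units by edgeR, SE, adjusted p = 2.35e-10). Of its 3.013 kb of exon, 2122 bases overlap Tbl3 on the opposite strand, so with no stated strand setting this value is uncertain. Nox1 itself was scarce, at 0.165 CPM in knockout and 0.059 CPM in wild type cells, and was not called (adjusted p = 0.111 by edgeR). Cyba, the membrane subunit that several oxidases share, stood at 68.9 ± 2.31 CPM in knockout and 21.6 ± 1.26 CPM in wild type cells (1.68 ± 0.07). Xdh, the xanthine dehydrogenase that can act as an oxidase, fell to 6.92 ± 0.452 CPM in knockout cells, against 50.4 ± 2.90 CPM in wild type cells (SD, n = 3 each). Duoxa1, which matures the dual oxidase DUOX1, fell by 0.75, with exons that overlap Duoxa2 on the opposite strand, and the monoamine oxidase gene Maoa by 0.73.

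Nnt, the mitochondrial transhydrogenase that makes NADPH, has a pair of rows under its symbol. The main row had 13, 12 and 6 counts in the knockout libraries, against 7, 0 and 6 in wild type libraries, too few to be tested, and the other row was 0 in all 6 libraries. Of the 7.037 kb of exon of the main row, 3339 bases are shared with the other row on the same strand. Counting that drops reads of shared exons would lower both rows, and how such reads were treated is not stated, so the level of Nnt cannot be read from these counts.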
